A study of Homo sapiens with 6 samples.

Results

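The genes described here are the motors, scaffolds and kinases with which a cell builds the mitotic spindle, separates its chromosomes and divides in 2. They are 39 genes chosen by name: mitotic kinesins, spindle assembly genes, cytokinesis genes and mitotic kinases with the partners of AURKB. A probe set, the group of array probes that reads a transcript, was counted as a member where its annotated gene symbols include one of the 39. This held for 75 of the 54613 probe sets tested. Of the 39 genes, 38 had a probe set annotated with that gene alone and were read at the one with the highest mean over all arrays. CIT, the citron kinase gene, has only probe sets that also list a microRNA gene and is given apart. The arrays hold 19775 genes read in this way.

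RNA came from MCF10A, an immortalised line of human breast epithelium that does not form tumours. One group, called the mimic, was transfected with a mimic labelled for miR-221 and miR-222 together, and the other, called the control, with miR-control. Each group has 3 biological replicates per the labels, and each replicate was hybridised to its own single-colour Affymetrix array, which gives 6 arrays. Both groups were transfected cells of 1 line, and the sources used here give no mimic dose, harvest time or control sequence. The values are log2 intensities, so a difference of 1 is a 2-fold difference.

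MicroRNAs of this pair act through the same seed, the stretch from base 2 to base 8 that pairs with messenger RNAs. The mature sequences are shown because they define the treated group. They are from RefSeq (GRCh38.p14), 5′ to 3′, with the seed in capitals, and both lie on the minus strand of chromosome X, at chrX:45746180-45746202 and chrX:45747036-45747056.
hsa-miR-221-3p: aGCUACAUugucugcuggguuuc
hsa-miR-222-3p: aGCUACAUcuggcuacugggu
The 7 seed bases are identical. Which strands the transfected mimic contained is not given in the labels.

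As background, most of these genes are transcribed in a wave late in the cell cycle, and their products are destroyed as cells leave mitosis. Kinesins walk along or take apart microtubules, Aurora and Polo kinases switch the steps on, and the central spindle and the contractile ring then divide the cell. Their promoters are known for a short element, the cell cycle genes homology region (CHR), and for CCAAT boxes. The MuvB core binds the CHR, as part of the DREAM complex in resting cells and with MYBL2 and FOXM1 in dividing ones. In RNA from whole cultures, fewer cells in mitosis and less RNA per mitotic cell cannot be told apart.

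The promoters of 33 of the 39 genes are in the RefSeq promoter table (GRCh38.p14). TPX2, RACGAP1, AURKA, TTK, PBK and BIRC5 were not matched. Each promoter runs from 250 bases before to 50 bases from the start site, and genes with several start sites give 38 promoters in all. The CHR was searched as TTTGAA and TTCGAA and the CCAAT box as CCAAT, on both strands, and matches were allowed to overlap. CHR letters were in 28 of the 38 member promoters (73.7%) and in 16.4% of all 35116 promoters. CCAAT letters were in 29 (76.3%), against 34.6% of all promoters, and both together in 23 (60.5%), against 6.38%. An E2F element, searched as TTTCCCGC, TTTCGCGC, TTTGCCGC and TTTGGCGC, was in 2 promoters, those of NUSAP1 and KIF15 (5.26%), against 3.31%. A match describes the letters and shows no bound factor.

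The 150 bases before the start site are printed for 7 genes, on the gene's strand, 5′ to 3′, with CHR, CCAAT and E2F letters in capitals. The first 5 are the genes of each role with the largest fall among those matched whose window holds both CHR and CCAAT letters: KIF23 (chr15:69414199-69414348, plus strand), DLGAP5 (chr14:55191586-55191735, minus strand), CEP55 (chr10:93496462-93496611, plus strand), PLK1 (chr16:23678739-23678888, plus strand) and CDCA8 (chr1:37692366-37692515, plus strand). The last 2 are CKAP5 (chr11:46846281-46846430, minus strand) and NUMA1 (chr11:72080543-72080692, minus strand). Neither was called lower at the probe set read, although the other CKAP5 probe set fell.
KIF23: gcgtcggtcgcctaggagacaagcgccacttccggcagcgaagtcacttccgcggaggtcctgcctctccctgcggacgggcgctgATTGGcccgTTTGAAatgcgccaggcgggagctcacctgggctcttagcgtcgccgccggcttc
DLGAP5: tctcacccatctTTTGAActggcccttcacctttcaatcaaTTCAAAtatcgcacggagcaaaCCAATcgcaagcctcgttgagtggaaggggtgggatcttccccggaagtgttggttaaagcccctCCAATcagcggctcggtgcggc
CEP55: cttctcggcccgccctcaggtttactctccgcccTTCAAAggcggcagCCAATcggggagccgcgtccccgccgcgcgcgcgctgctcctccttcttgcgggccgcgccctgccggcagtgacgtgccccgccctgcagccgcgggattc
PLK1: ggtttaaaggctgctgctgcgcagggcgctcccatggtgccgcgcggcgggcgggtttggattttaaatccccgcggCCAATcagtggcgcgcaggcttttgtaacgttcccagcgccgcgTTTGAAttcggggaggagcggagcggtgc
CDCA8: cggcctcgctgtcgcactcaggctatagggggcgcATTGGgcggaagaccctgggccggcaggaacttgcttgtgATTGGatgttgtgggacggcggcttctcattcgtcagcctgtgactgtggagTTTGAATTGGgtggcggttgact
CKAP5: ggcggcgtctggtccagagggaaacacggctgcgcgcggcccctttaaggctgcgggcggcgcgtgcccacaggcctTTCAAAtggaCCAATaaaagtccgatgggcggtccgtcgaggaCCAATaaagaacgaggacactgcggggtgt
NUMA1: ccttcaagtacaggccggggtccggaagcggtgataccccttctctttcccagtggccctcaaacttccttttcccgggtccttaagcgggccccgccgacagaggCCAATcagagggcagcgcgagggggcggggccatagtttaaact
In CDCA8 a CHR and an inverted CCAAT box share 1 base, with the CHR starting 23 bases before the start site. In PLK1 the CHR starts 29 bases and the CCAAT box 73 bases before it. CKAP5 holds CHR and CCAAT letters as the 5 falling genes shown do, and NUMA1 holds a CCAAT box alone.

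**Figure D1:**
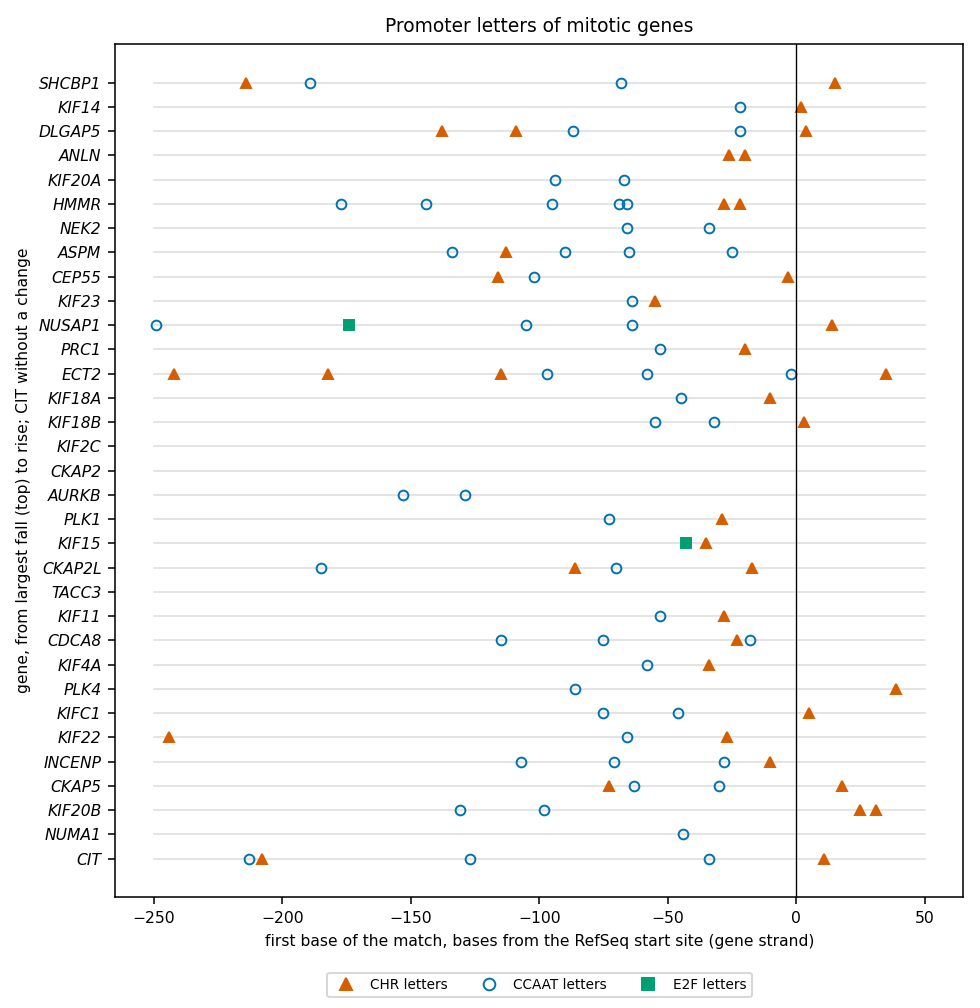
Positions of CHR (triangles), CCAAT (open circles) and E2F letters (squares) in the promoters of the 33 matched genes, by the first base of each match from the RefSeq start site; genes run from the largest fall at the top to NUMA1, with CIT last, and start sites of ECT2, AURKB, KIF22 and PLK4 share a line. CHR letters are in 22 of the 28 genes that fell at the probe set read and in 3 of the 4 measured genes that did not. Of these 3, CKAP5 and KIF20B each have another probe set that fell.

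The comparison asked how the mimic changed the RNA of these genes relative to the control. The division machinery was lower in mimic cells almost throughout: 34 of the 38 genes fell, 1 rose and 3 did not pass (limma with Benjamini-Hochberg adjustment over all probe sets, threshold 0.05). Over all genes, 16.3% fell and 14.1% rose. SHCBP1, KIF14, DLGAP5, ANLN and KIF20A fell furthest, each more than 8-fold. At the probe sets read, INCENP, CKAP5 and KIF20B did not pass and NUMA1 rose. CKAP5 and KIF20B each had another probe set that fell (log2 change -0.19 and -0.90). The median log2 change was -1.56, a 2.95-fold fall, beside a median of 0.03 over all genes. At least 2-fold falls were found for 24 members (2.09% of all genes) and at least 4-fold falls for 15 (0.379% of all genes). All 3 mimic arrays lay below all 3 control arrays for 35 members, against 21.9% of all genes. Among the 20 largest falls of all genes, 8 were members, and among the 100 largest, 16.

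Array medians lay between 7.59 and 7.66, and pairs of arrays correlated across probe sets with r from 0.9953 to 0.998 within a group and from 0.9821 to 0.9858 between groups. As a measure of RNA integrity, ACTB control probe sets at the 3′ end minus those at the 5′ end averaged 0.36 ± 0.03 with the mimic and 0.32 ± 0.04 in the control (SD, n = 3 each; exact two-sided permutation p = 0.3). For GAPDH it averaged 0.03 ± 0.01 and -0.01 ± 0.04 (SD, n = 3 each; exact p = 0.1, the smallest that 3 arrays against 3 can give). Over all genes 16.3% fell and 14.1% rose, which is the background for the marker counts that follow. Basal mammary markers were bright, with KRT5, KRT14, ITGB4, EGFR and DSG3 between 10.88 and 13.50 in group means. Of 8 measured basal markers 6 fell, these 5 and CDH3 (by 0.58), while LAMB3 rose by 0.46. The ITGB4 call was lost under 1 of 13 alternatives. The summed linear intensity of the basal markers ran from 26679 to 28358 with the mimic and from 53496 to 55332 in the control. Of 8 fibroblast markers 1 rose (DCN, by 1.66) and 2 fell (FAP and LUM). LUM was dim, at 4.09 with the mimic and 5.15 in the control, and its call was lost under 1 of 12 alternatives. The fibroblast sums were 15343 to 16195 with the mimic, against 7249 to 7687 in the control. DCN was by far the brightest, at 13.72 with the mimic and 12.06 in the control. It weighs most in these sums, while FAP and LUM went the other way. Of 6 endothelial markers 1 fell (KDR, by 1.48), with sums of 1725 to 1838 against 2006 to 2203. Of 4 measured blood cell markers 1 fell (CD14, by 1.15) and 1 rose (ITGAM, by 0.21, a call lost under 9 of 13 alternatives), with sums of 1193 to 1270 against 1683 to 1720. Log2 intensities have no zero and no detection calls were used, so none of these markers can be called absent, and their part in the falls of the mitotic genes was not tested.

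Cytokinesis genes had the lowest median of the 5 roles, at -2.31 over 6 measured genes, all of which fell. Mitotic kinases followed at -2.19, with 7 of 7 lower. Spindle assembly genes had a median of -1.57 with 8 of 10 lower, and the kinesins one of -1.28 with 11 of 12 lower. The 3 partners of AURKB had a median of -0.74, with 2 lower. The roles overlap widely in their changes, and the differences between roles were not tested.

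**Figure D2:**
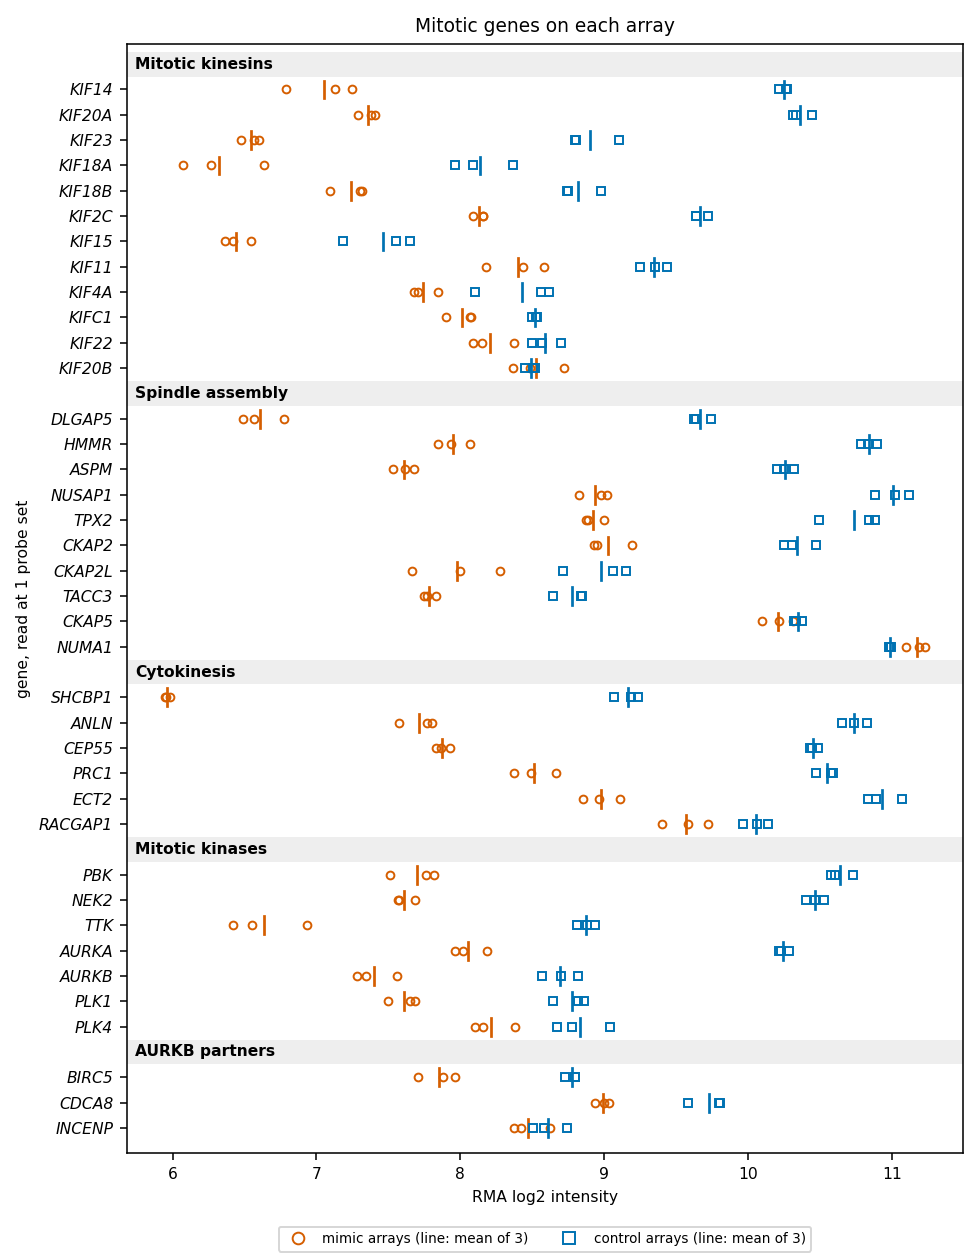
RMA log2 intensity (horizontal axis) of the 38 genes on each array, grouped by role, with mimic arrays as circles, control arrays as squares and a line at each mean of 3 arrays; intensities of different genes cannot be set against each other. The groups are apart for all genes except INCENP and KIF20B, and NUMA1 alone has its mimic arrays above its control arrays.

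Among the kinesins, KIF14, KIF20A and KIF23 fell most. KIF14, which works with citron kinase at the midbody, had log2 intensities of 6.79, 7.13 and 7.25 on the mimic arrays, against 10.22, 10.26 and 10.27 on the control arrays. This is a 9.16-fold fall (log2 change -3.20 ± 0.10 SE, limma adjusted p = 5.26e-09), and mimic replicate 1 is the lowest of the 6. KIF20A, which carries the chromosomal passenger complex to the central spindle, read 7.29, 7.38 and 7.41 with the mimic and 10.31, 10.45 and 10.34 in the control, an 8.04-fold fall. KIF23 is a motor of centralspindlin, the complex that bundles microtubules between the separating chromosomes. Its values were 6.60, 6.48 and 6.57 against 9.10, 8.81 and 8.80, which is 5.12-fold lower with the mimic, and the groups are more than 2 log2 units apart.

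Kinesins that act on chromosomes and their microtubules had smaller falls than these 3. KIF18A, which dampens chromosome oscillation at metaphase, gave 6.07, 6.26 and 6.64 in mimic cells and 8.37, 7.96 and 8.09 in control cells (log2 change -1.82 ± 0.14 SE). Both groups of KIF18A are spread, and they do not meet. KIF18B, a plus-end microtubule depolymerase, had a log2 change of -1.58 ± 0.09, and KIF2C, which takes apart wrongly attached microtubules at centromeres, one of -1.53 ± 0.06 (SE). KIF4A, a chromokinesin that also shortens the central spindle, fell by 0.68, with control replicate 3 at 8.10 and the other control arrays at 8.62 and 8.56, all above the mimic arrays at 7.70, 7.84 and 7.68. KIF22, a chromokinesin that pushes chromosome arms outward, fell least of the falling kinesins, by 0.38 (limma adjusted p = 0.00633).

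The kinesins that hold spindle poles apart or focus them also had smaller changes. KIF11 slides antiparallel microtubules to separate the poles and is the target of spindle-blocking drugs. It read 8.18, 8.44 and 8.58 with the mimic and 9.43, 9.35 and 9.25 in the control, a 1.93-fold fall (limma adjusted p = 2.84e-05). KIF15, which can stand in for KIF11, fell 2.03-fold, and KIFC1, a minus-end motor that clusters poles, fell 1.42-fold. The 95% intervals of the log2 change do not meet between KIF11 (-1.16 to -0.73) and KIF14 (-3.42 to -2.97); the pair was chosen after the values were seen.

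KIF20B, a kinesin of late cytokinesis, is the kinesin that did not pass, at 0.03 ± 0.09 on the log2 scale (SE; limma adjusted p = 0.821). Its 3 probe sets disagree. The one used has the suffix x_at, which marks probes that can bind other transcripts, and a second x_at probe set had a change of 0.00. The last one fell by 0.90 (limma adjusted p = 0.000458), with 7.47, 7.86 and 8.09 in mimic cells against 8.85, 8.55 and 8.72 in control cells. With all 3 averaged, the KIF20B change was -0.29 (limma adjusted p = 0.00192).

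Spindle assembly genes split into falls, many of them large, and 2 genes not called lower at the probe set read. DLGAP5, which stabilises kinetochore fibres, had 6.77, 6.56 and 6.49 on the mimic arrays and 9.75, 9.64 and 9.62 on the control arrays, an 8.34-fold fall (limma adjusted p = 1.46e-09). HMMR, a spindle pole protein also known as a hyaluronan receptor, read 7.85, 7.93 and 8.07 against 10.84, 10.78 and 10.90, a 7.41-fold fall. In both genes the 2 groups are far apart relative to their spread. ASPM, a spindle pole gene mutated in microcephaly, fell 6.28-fold, and the microtubule-bundling gene NUSAP1 fell 4.19-fold. TPX2, which nucleates microtubules near chromatin and activates AURKA, read 8.87, 9.0 and 8.89 with the mimic and 10.84, 10.89 and 10.50 in the control, where replicate 3 is the lowest.

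CKAP2 fell 2.49-fold and CKAP2L 1.99-fold; both encode spindle-associated proteins. CKAP2L had the widest spread of any member on the mimic arrays, at 8.28, 8.0 and 7.67, and its control arrays, at 9.15, 9.06 and 8.71, all lie above them. TACC3 and CKAP5 form a complex on kinetochore fibres. TACC3 fell by 0.99 (95% interval -1.15 to -0.83), while CKAP5, a microtubule polymerase, was at -0.14 (95% interval -0.29 to 0.02; limma adjusted p = 0.195). The intervals do not meet, in a pair chosen after the values were seen. CKAP5 read 10.10, 10.22 and 10.31 against 10.34, 10.32 and 10.38, so its groups are next to each other without overlap, and its second probe set passed with a log2 change of -0.19 (limma adjusted p = 0.0472).

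NUMA1, which tethers dynein at spindle poles and is also a nuclear protein between divisions, is the member that rose. It read 11.10, 11.19 and 11.23 with the mimic and 10.98, 10.99 and 10.99 in the control, a log2 change of 0.19 ± 0.06 (SE; limma adjusted p = 0.0490). The other 4 NUMA1 probe sets did not pass, with changes from -0.10 to 0.21. The call was lost when any 1 of mimic replicates 2 and 3 and the 3 control replicates was left out (adjusted p from 0.0891 to 0.151), and with arrays centred on their medians (log2 change 0.16, adjusted p = 0.123).

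**Figure D3:**
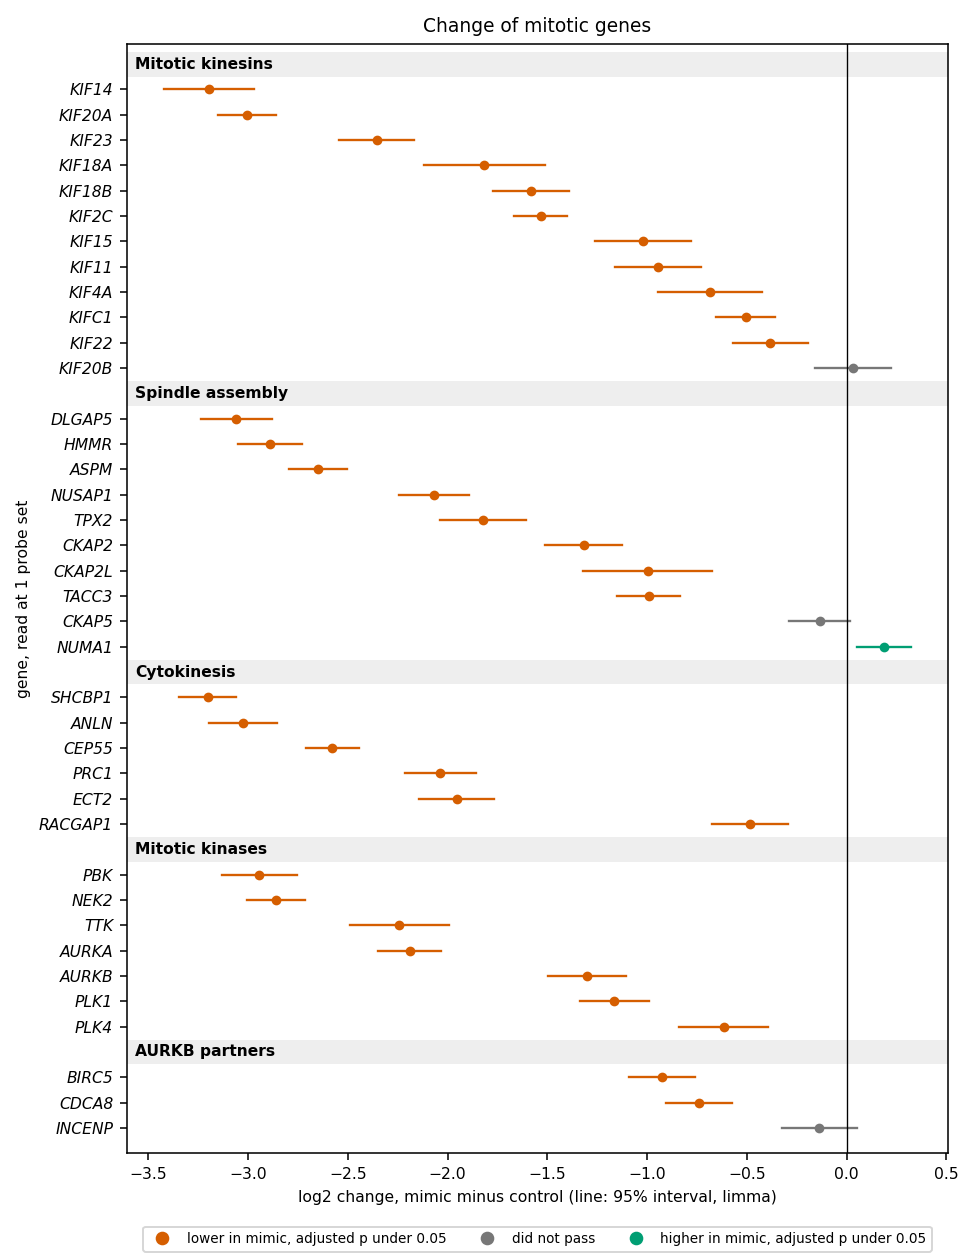
Log2 change, mimic minus control, of each gene with limma's 95% interval, grouped by role and ordered within each role; colours mark genes that passed lower, passed higher or did not pass. Intervals of the largest falls lie near -3, and those of INCENP, CKAP5 and KIF20B cross 0.

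All 6 measured cytokinesis genes fell. SHCBP1, a partner of centralspindlin at the midbody, read 5.98, 5.95 and 5.96 on the mimic arrays and 9.24, 9.19 and 9.07 on the control arrays. The fall is 9.21-fold (log2 change -3.20 ± 0.07 SE, limma adjusted p = 6.04e-10), and the 3 mimic arrays differ by less than 0.05. ANLN, the anillin scaffold of the contractile ring, had 7.57, 7.77 and 7.80 with the mimic and 10.83, 10.74 and 10.66 in the control, an 8.14-fold fall. CEP55, which recruits the abscission machinery to the midbody, fell 5.97-fold.

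PRC1, which crosslinks the microtubules of the central spindle, fell 4.10-fold, and ECT2, the exchange factor that activates RHOA at the division plane, fell 3.88-fold. RACGAP1 is the partner of KIF23 in centralspindlin and binds ECT2. It read 9.40, 9.58 and 9.72 in mimic cells and 10.06, 10.14 and 9.96 in control cells, a log2 change of -0.48 ± 0.09 (SE; limma adjusted p = 0.00148). At the probe sets read, the 95% interval of the RACGAP1 change (-0.67 to -0.29) lies apart from that of KIF23 (-2.55 to -2.17). The proteins act in 1 complex, and this pair, too, was chosen after the values were seen. The other KIF23 probe set, dim at a control mean of 5.19, had an interval of -0.34 to -0.03, which meets that of RACGAP1. Of the 2 probe sets that list CIT together with the microRNA gene MIR1178, one fell by 0.49 ± 0.07 (SE) and the other, at -0.15 ± 0.08, did not pass, and neither can be given to CIT alone.

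All 7 mitotic kinases fell. PBK, a kinase of mitotic cells, had 7.51, 7.81 and 7.76 with the mimic and 10.73, 10.61 and 10.58 in the control, a 7.69-fold fall. NEK2, which splits the centrosomes before mitosis, read 7.56, 7.58 and 7.68 against 10.46, 10.53 and 10.41, a 7.26-fold fall (limma adjusted p = 6.83e-10). TTK, the kinase that starts spindle checkpoint signalling, read 6.42, 6.55 and 6.94 against 8.94, 8.88 and 8.81. Its mimic arrays are spread over 0.5 and lie nearly 2 units under the control arrays.

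AURKA, the Aurora kinase of the spindle poles, had 7.96, 8.02 and 8.19 in mimic cells and 10.21, 10.29 and 10.23 in control cells, a 4.56-fold fall. AURKB, the Aurora kinase of the centromere and midzone, read 7.35, 7.28 and 7.56 against 8.82, 8.70 and 8.57, a 2.46-fold fall. At the probe sets read, the 95% intervals of the 2 Aurora genes, -2.35 to -2.03 and -1.49 to -1.10, do not meet. They, too, were compared after the values were seen. PLK1, the Polo kinase needed from mitotic entry to cytokinesis, fell 2.24-fold (limma adjusted p = 1.03e-06). PLK4, which starts centriole duplication and so acts before mitosis, fell 1.53-fold and had the smallest change of the 7, at 8.38, 8.16 and 8.10 against 9.04, 8.68 and 8.78.

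At the probe sets read, the partners that make up the chromosomal passenger complex with AURKB changed by different amounts. BIRC5, or survivin, read 7.71, 7.88 and 7.96 with the mimic and 8.79, 8.73 and 8.80 in the control, a 1.90-fold fall. The other BIRC5 probe sets had log2 changes of -1.86, -0.64 and -0.08, so the size of its fall is uncertain. CDCA8, or borealin, fell 1.67-fold. INCENP, the scaffold that binds and activates AURKB, had 8.63, 8.42 and 8.38 against 8.51, 8.74 and 8.58. Its groups overlap, and the log2 change of -0.14 ± 0.09 (SE) did not pass (limma adjusted p = 0.292).

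Counted by probe set, 54 of the 75 member probe sets fell and 1 rose, beside 13.1% and 11.6% of all probe sets. Several probe sets read 18 of the genes, of which 10 fell at every one, and in none did 1 probe set fall and another rise. The size of the fall depended on the probe set. The mean used to pick a probe set includes the mimic arrays, so the rule can pass over a probe set because it fell. In control means, KIF20B and BIRC5 were each brighter at a probe set that fell further than the one read. These means were 8.71 against 8.49 for KIF20B and 9.15 against 8.77 for BIRC5. BIRC5 is read at an x_at probe set here, and another of its 4 probe sets fell by 1.86, with 7.29, 7.29 and 7.29 in mimic cells against 9.29, 9.27 and 8.89 in control cells. AURKA fell by 2.51 at a second probe set and had a change of -0.03 at another (limma adjusted p = 0.827). AURKB fell by 0.26 at its second probe set, and ECT2 fell by 0.89 at an x_at probe set. The other 2 ASPM probe sets had log2 changes of -2.05 and -0.79. Probe sets of ECT2 (log2 change -0.06), KIF23 (-0.18), CKAP2 (0.01) and BIRC5 (-0.08) did not pass while others of the same gene did. Further, 6 probe sets list CKAP2 together with immunoglobulin lambda genes, and none of them passed, with changes from -0.07 to 0.13.

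**Figure D4:**
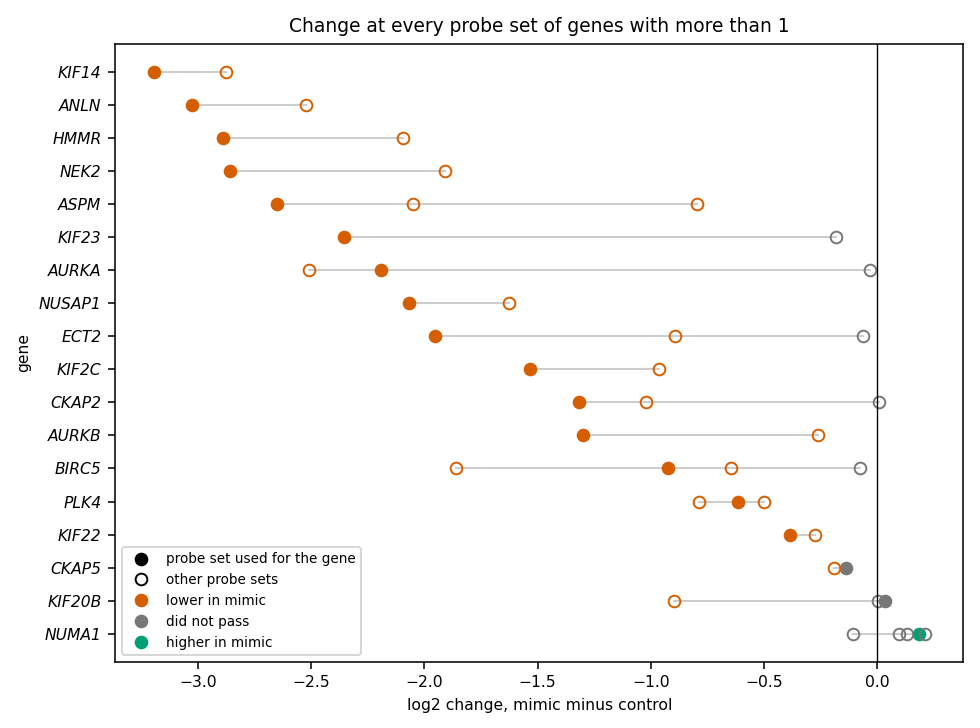
Log2 change at every probe set of the 18 genes that have more than 1 of their own, with the probe set used for the gene filled and the others open. KIF14, ANLN, HMMR and NEK2 fell at both of their probe sets, while AURKA, ECT2, KIF23, CKAP2, BIRC5 and KIF20B each have at least 1 near 0.

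The genes were set beside 7 lists of neighbouring machinery, made by role. The anaphase-promoting complex is the ubiquitin ligase that marks many of the mitotic proteins for destruction. Among 16 measured genes of the complex and its regulators, 8 fell and 0 rose by limma (median log2 change -0.23). With the arrays quantile normalized again, or with probe sets averaged, 2 rose, and 1 rose without mimic replicate 1. At the probe sets read, the largest positive change was 0.19 for ANAPC4, the 1 positive change with an unadjusted limma p under 0.05. FZR1 did not pass at the probe set read (-0.01), but 2 of its 4 probe sets rose. ANAPC10 and CDC23 did not pass either, and each had 1 probe set that fell. UBE2C, the ubiquitin-conjugating enzyme of the complex, read 9.07, 9.04 and 9.07 with the mimic and 10.91, 11.12 and 10.95 in the control. The activator gene CDC20 fell by 1.89, the inhibitor gene FBXO5 by 1.16 and the chain-extending enzyme gene UBE2S by 0.99. The core subunits that fell, ANAPC7, ANAPC13, CDC26 and CDC27, had changes between -0.38 and -0.28.

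Of 13 genes of FOXM1, the MuvB core and the DREAM complex, 6 fell and 2 rose (median -0.18). FOXM1, an activator of late cell cycle genes, had 7.91, 7.91 and 8.06 in mimic cells and 9.72, 9.55 and 9.59 in control cells, a 3.16-fold fall at its 1 probe set, which has the suffix x_at. MYBL2, which joins the MuvB core in dividing cells, fell by 0.73, and TFDP1, a partner of E2F factors, by 0.60. LIN9, a MuvB subunit, rose to 9.22, 9.23 and 9.26 with the mimic, against 8.52, 8.47 and 8.44 in the control, and 2 of its 3 probe sets rose; the one read here is an x_at probe set. RBBP4, another MuvB subunit, fell by 0.31 (limma adjusted p = 0.00327), with 5 of its 6 probe sets lower. The MuvB genes LIN37, LIN52 and LIN54 did not pass at the probe sets read, although the other LIN52 probe set fell.

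Centrosomes and tubulin form the body of the spindle. Of 20 measured centrosome and microtubule nucleation genes, 7 fell and 1 rose (median -0.09). STIL (log2 change -1.34) and SASS6 (-0.70), which build new centrioles, fell most, followed by the gamma-tubulin gene TUBG1 (-0.58) and the augmin gene HAUS8 (-0.56). Of 10 tubulin genes, 4 fell and 1 rose (median -0.16). TUBB2A fell by 0.91, TUBB4B by 0.65 and TUBB6 by 0.60, and TUBA1A rose by 0.79. Tubulin genes are near-identical over long stretches, so a probe set may read several of them and single tubulin values are uncertain.

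Of 18 measured genes of the actomyosin ring and of abscission, 7 fell and 3 rose (median 0.02), and 7 fell and 8 rose with the arrays quantile normalized again. The formin gene DIAPH3 fell by 1.06, the myosin gene MYH10 by 0.47, the abscission gene CHMP4B by 0.42 and the septin gene SEPTIN9 by 0.41. RHOA, the switch that ECT2 turns on, had a change of 0.00 ± 0.06 (SE; limma adjusted p = 0.987). Of 12 dynein and dynactin genes, 2 fell and 2 rose (median 0.10), but 2 fell and 6 rose after renewed quantile normalization, and 2 fell and 1 rose with arrays centred on their medians. The 4 genes called were the light intermediate chain genes DYNC1LI2 (-0.53) and DYNC1LI1 (0.45), the light chain gene DYNLL1 (-0.23) and the dynein regulator gene PAFAH1B1 (0.21). The PAFAH1B1 call was lost under 7 of 12 alternatives and the DYNLL1 call under 3 of 13, leaving out single arrays among them (adjusted p up to 0.16 and 0.0606).

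Kinesins of cargo transport give a comparison within the motor family. Of 20 such genes and adaptors, 7 rose and 2 fell (median 0.12), beside 0 and 11 of the 12 mitotic kinesins. KIF13B, a membrane cargo motor, read 10.10, 10.15 and 10.13 with the mimic and 9.21, 9.36 and 9.33 in the control, a 1.77-fold rise. KIF21A rose by 0.75 and the adaptor gene KIFAP3 by 0.49. KIF1B, a mitochondrial and vesicle motor, fell by 0.45, and KIF5B, the main conventional kinesin, by 0.33. The mitotic and transport kinesins were not tested against each other as lists. The shares of all genes that fell and rose, given above, are the background for all 7 lists.

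**Figure D5:**
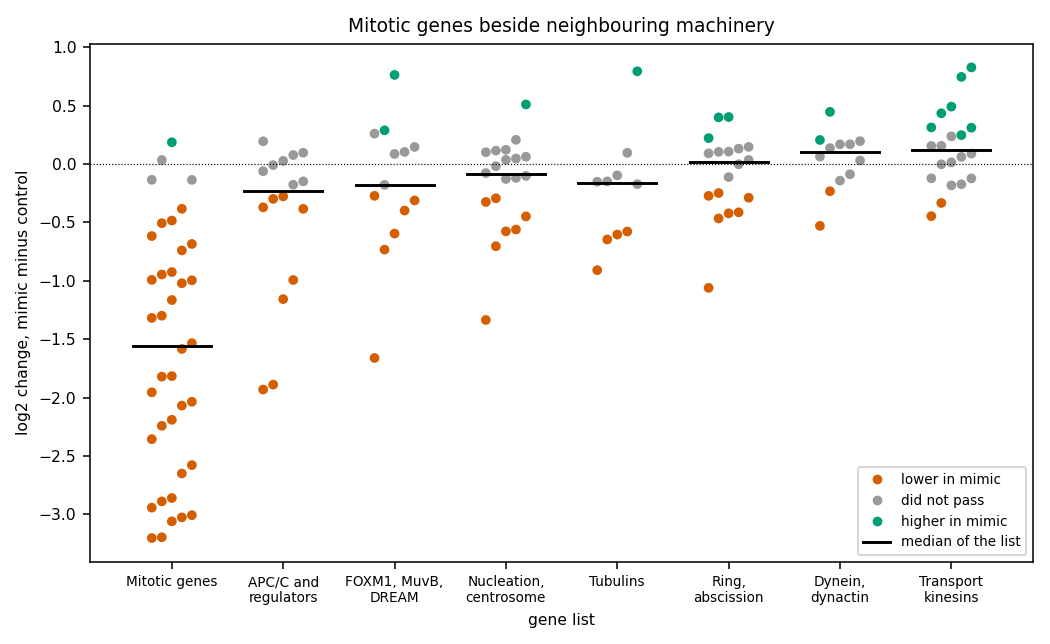
Log2 change, mimic minus control, of the 38 mitotic genes and of 7 lists of neighbouring genes, 1 point per gene, coloured by whether it passed lower, passed higher or did not pass, with a line at each list's median. The mitotic genes reach to -3.20, while in the other lists the lowest value is -1.93, for UBE2C.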

How the data were processed

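Total RNA of 6 transfected MCF10A cultures was hybridised to single-colour Affymetrix arrays. The deposited values are log2 intensities, normalized by the authors with RMA per the submitters' processing notes, with no version given there. RMA equalises probe intensities between arrays before it summarises them per probe set, which can hide a change in total RNA, and it draws dim values together. That the scale is log2 follows from the range of the values.

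The table holds 54675 probe sets, of which 62 controls were left out. By the platform annotation, 41091 probe sets had 1 symbol, 1801 had several and named no gene here, and 11721 had none. Mimic was compared with control in limma 3.58.1 (R 4.3.3; lmFit and eBayes, no covariates), with Benjamini-Hochberg adjustment over 54613 probe sets; errors are moderated standard errors and intervals cover 95%. The fit was tested on a simulated table of 54613 probe sets in which 200 changed: 57% of changes of 0.5 and 96% of changes of 1 on the log2 scale were recovered, and 5.56% of calls were false. Precision is limited by there being 3 arrays a group.

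The members, the lists of other genes and the rule for named genes were chosen with earlier results of these data known. By that rule the text names all 39 members, up to 4 called genes with the largest change of each comparison list, FOXM1, MYBL2, CDC20 and UBE2C, and the called cell type markers. ANAPC4, ANAPC7, ANAPC10, ANAPC13, CDC23, CDC26, CDC27, FZR1, LIN37, LIN52, LIN54, RBBP4, RHOA and KIF5B were named after their values were seen. List members without a value are not analysed here. Alternatives were the filter on dim probe sets, 2 normalizations, the variance model, the replicate block, leaving out each array, 2 thresholds and 2 ways of reading genes. Tables and figures were made with Python 3.11.15, pandas 2.3.3, numpy 2.4.6 and matplotlib 3.10.9.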

Additional observations from a re-analysis of the deposited data

How the results depend on the processing

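The count of 34 falling members was between 25 and 36 under the alternatives. Where it was 36, with probe sets averaged, CKAP5 and KIF20B joined the 34. Where it was 25, with x_at and s_at probe sets left out, 30 members had a value. KIF23 (log2 change -0.18), ECT2 (-0.06) and AURKA (-0.03) then no longer passed. The probe sets that then read KIF23, ECT2 and AURKA were dimmer, with control means of 5.19, 6.63 and 6.52. At the probe sets used in the main reading these means were 8.90, 10.93 and 10.25. The other alternatives with fewer falling members were the dim filter (33) and the 1.5-fold minimum (31). The same 34 genes fell without each single array in turn. The count of rising members, 1 for NUMA1, was 0 to 1 when single arrays were left out, and 0 with centred arrays, with the replicate block, at an adjusted p under 0.01, with the 1.5-fold minimum, with averaged probe sets and with x_at and s_at probe sets left out. The members' median was -1.21 with probe sets averaged and -1.23 without x_at and s_at probe sets, and between -1.59 and -1.51 otherwise. KIF20B, which was not called, changed sign with its probe sets averaged (-0.29) and ranged from -0.064, without mimic replicate 1, to 0.11, without mimic replicate 2. With the replicate number as a block 34 members fell, and the block changed no member's call but that of NUMA1. Deviations of same-numbered arrays correlated at -0.107, 0.084 and 0.082, and those of other-numbered arrays at -0.186 to 0.12. With 3 arrays a group these values cannot show whether the numbers pair the samples. Over all probe sets, the 1.5-fold minimum left 3590 calls (2244 lower, 1346 higher) and over genes 1723 (1083 lower, 640 higher), since it tightens the rule. The stricter adjusted p of 0.01 left 3828 probe sets and 1815 genes higher. Among the lists of neighbouring genes, over all alternatives, 0 to 3 transport kinesins fell and 2 to 8 rose. For tubulins 2 to 7 fell and 0 to 1 rose, and for nucleation genes 2 to 8 fell and 0 to 2 rose. For dynein genes 0 to 4 fell and 0 to 6 rose, and for ring and abscission genes 1 to 7 fell and 0 to 8 rose. For FOXM1, MuvB and DREAM genes 3 to 6 fell and 1 to 3 rose. For the anaphase-promoting complex and its regulators 4 to 9 fell and 0 to 2 rose. Of 79 genes named by the rule and with a value, 68 kept direction and call under all alternatives but the stricter thresholds. The genes named after their values were seen are not among the 79. Low intensities limit how large a fall can be seen, since no detection calls were used.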

Other observations

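The median SD over the 38 mitotic genes was 0.12 on the mimic arrays and 0.09 on the control arrays, and over all genes it was 0.08 and 0.07. The mimic SD was the larger one for 25 of the 38 mitotic genes and for 11913 of 19775 genes. Relative to the control mean, the median mitotic gene was at -1.62, -1.55 and -1.50 on the mimic arrays and at 0.06, 0.01 and -0.06 on the control arrays. Mimic replicate 1 was the lowest mimic array for 21 of the 38 genes, and mimic replicate 3 the highest for 24. Control replicate 3 was the lowest control array for 21, and control replicate 1 the highest for 20. The difference in spread between the groups was not tested.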
